A study of Homo sapiens with 4 samples.

Results

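The DNA replication genes are 49 genes whose products license and fire replication origins, unwind DNA, load the sliding clamp, synthesise and join the new strands, or supply and regulate that machinery. They were chosen by name, with earlier results of these data known. Each member is represented by the probe set that the array's annotation assigns to that gene alone, and by the brightest one where there was more than 1. Of the 49, 48 had such a probe set, out of 17958 genes tested in all. PCNA, the sliding clamp, was not measured on its own because its probe set is annotated to 2 genes, and it has no value here.

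Total RNA of HCT116, a human line established from a colorectal carcinoma, was hybridised to Affymetrix arrays. There were 2 arrays of vehicle-treated cells and 2 of cells given 1 µM 5-aza-2'-deoxycytidine (decitabine), which replaces cytosine in newly made DNA and traps DNA methyltransferases there. Dosing began 24 hours after the cells were seeded at a target density of 30%, was repeated at 48 hours, and RNA of both groups was taken at 72 hours after the first dose. Samples are numbered 1 and 2 within a group, with no word on whether they came from separate cultures. The p-values therefore measure only how far these samples spread, and that spread may be technical.

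Replication starts from sites bound by the origin recognition complex. In G1, ORC, CDC6 and CDT1 load the ring of MCM2 to MCM7, the inactive helicase. At S phase entry the kinase CDC7 with its activator DBF4, together with cyclin E and its kinase, turns that ring into the active helicase by adding CDC45 and the GINS complex. Polymerase alpha-primase starts each strand, RFC loads PCNA, polymerases epsilon and delta extend the strands, and FEN1 and LIG1 finish the lagging strand. Transcripts of many of these genes are known to peak around the start of S phase under E2F transcription factors, so that their level in a culture also reflects how many cells are cycling.

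All values are log2 levels from the authors' RMA processing, and a difference of -1 on this scale is a 2-fold lower level. The arrays correlated at 0.995 within vehicle, 0.992 within decitabine, and between 0.966 and 0.971 across the groups (Pearson's r over the 33297 probe sets of the array, a description since probe sets are no replicates). Of 10 colon epithelial markers, 3 fell (EPCAM at -0.72, CLDN4 at -0.92 and CLDN7 at -0.46 on the log2 scale), 2 rose (KRT18 at 0.44 and CDX2 at 0.70) and 5 were not called. EPCAM lay between 11.04 and 11.82, KRT8 between 12.99 and 13.24 and KRT18 between 12.79 and 13.33, whereas the intestinal markers VIL1 (4.22 to 4.79) and CDX1 (5.58 to 5.81) gave weak signals on every array. CDX2, an intestinal transcription factor, lay between 7.74 and 8.84, with its vehicle arrays below its decitabine arrays (adjusted p = 0.0344). Of 13 tested markers of fibroblasts, endothelium, leukocytes and erythroid cells, 4 rose (COL1A1, PECAM1, CD3E and CD14) and 0 fell. Their mean level was 4.16 and 4.21 on the vehicle arrays and 4.64 and 4.55 on the decitabine arrays, and the leukocyte marker PTPRC lay between 2.93 and 3.20 throughout. The table has no detection calls, and the part of these markers in the results was not tested.

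Most replication transcripts were lower in decitabine-treated cells. The share called lower varied between the role groups, and differences between groups were not tested. By limma at an adjusted p under 0.05, 36 of the 48 measured members fell and 0 rose, where 15.6% of all genes fell and 12.4% rose. The same shares of all genes stand beside the role group counts of this fit given below. None was higher at an unadjusted p under 0.05 either, and 40 were lower, but the share of all genes at that level was not worked out. With a trended robust variance 39 members fell and 0 rose, where 16.5% of all genes fell and 12.8% rose. The median log2 fold change of the members was -0.72, a 1.64-fold lower level, against -0.07 over all genes. The shifts were moderate in size. At least 1.5-fold falls were called for 28 members (10.1% of all genes) and at least 2-fold falls for 3 (2.62% of all genes): POLD3, POLA1 and CDT1.

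Both decitabine arrays lay below both vehicle arrays for 43 of the 48 members (39.5% of all genes). The arrays overlapped for ORC4, ORC5, CDC25A and POLD1, and only CCNE1 had both decitabine arrays above both vehicle arrays (26.3% of all genes). Against either vehicle array, the median member was lower by 0.62 to 0.63 on decitabine array 1 and by 0.77 on decitabine array 2. Most members' probe sets gave strong signals, with vehicle means from 5.63 to 11.95 and a median of 10.09, against 7.14 over all genes. DBF4 (5.63) and RPA3 (7.04) lay below that median of all genes. A refit left out the dimmer genes, those below the lower tertile of mean level. In it 23.1% of the genes left fell and 14.1% rose, and 39 members fell. Both shares of all genes were larger than with every gene kept. The refit had its own variance estimate and p-value adjustment, whose part in this was not tested. In total RNA from a culture, fewer cells in the phase that makes a transcript and less of it per cell cannot be told apart.

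**Figure D1:**
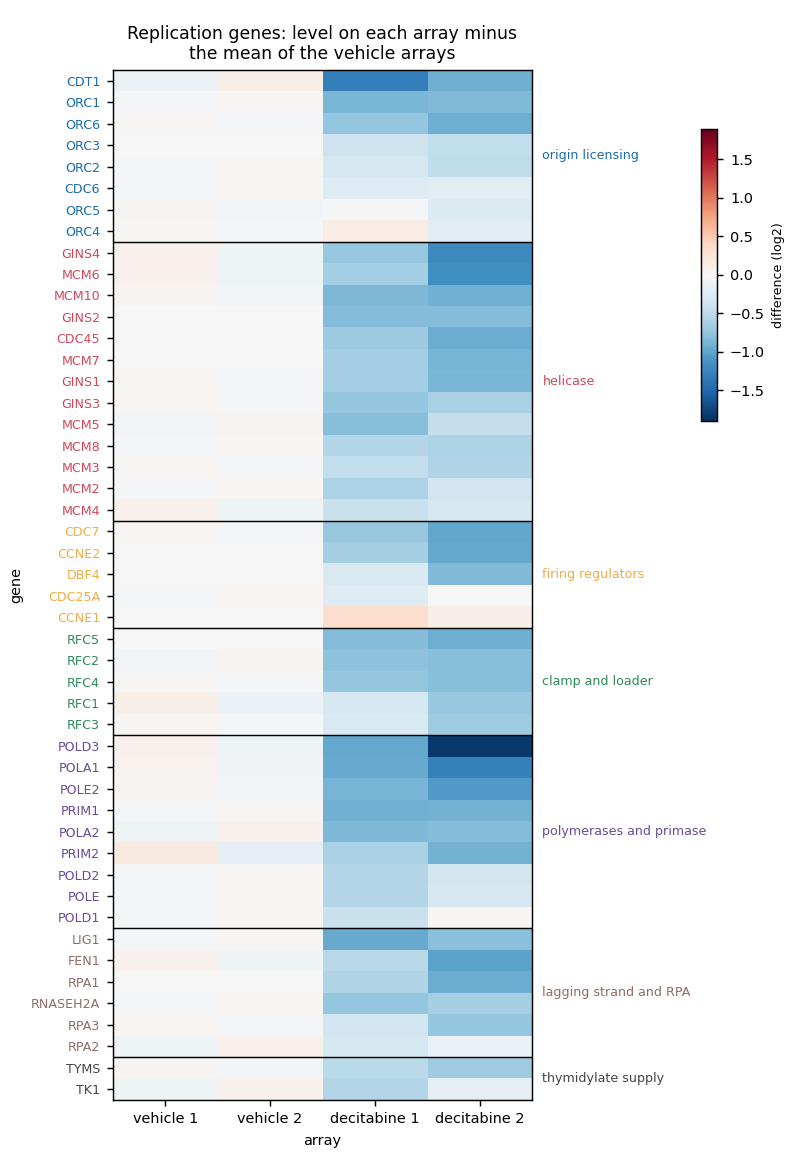
Level of each of the 48 replication genes (rows, coloured by role) on each array (columns) minus the mean of its vehicle arrays, in log2 units (blue lower, red higher). The vehicle columns stay pale while both decitabine columns are blue for most genes, with POLD3 darkest at decitabine 2 and CCNE1 the one row that is red on both decitabine arrays.

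Single arrays changed how many members were called but not the direction of the group. Without vehicle replicate 1 there were 21 falls and without vehicle replicate 2 there were 24, where 6.66% and 6.89% of all genes fell. Without decitabine replicate 1 there were 36 falls and without decitabine replicate 2 there were 35, where 18.9% and 14.6% of all genes fell. No member rose in these 4 fits, where 7.06%, 7.43%, 14.1% and 12.4% of all genes did, in the same order. Some members were called lower in each of these fits and under each other setting that was run. They were ORC1, ORC6, CDT1, MCM7, MCM10, CDC45, GINS1, GINS2, GINS4, CDC7, CCNE2, RFC2, RFC4, RFC5, POLA1, POLA2, PRIM1, POLD3, POLE2 and LIG1. The share of all genes that kept a call throughout was not worked out, so this list has no background to be set against.

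**Figure D2:**
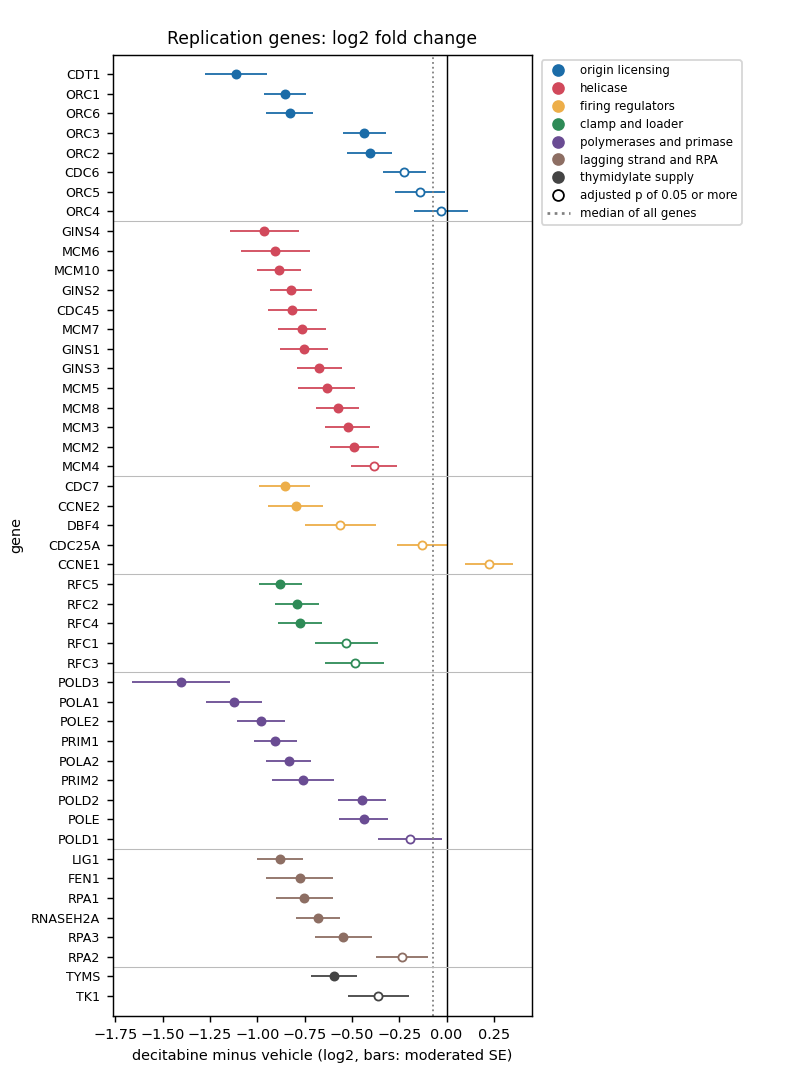
Decitabine minus vehicle on the log2 scale for each replication gene, grouped by role, with the moderated standard error as bars. Filled points passed an adjusted p of 0.05 in limma, open points did not, and the dotted line is the median of all genes at -0.07. The helicase genes form a compact block between -0.96 and -0.38, while the origin licensing and firing groups spread from strong falls to values near 0.

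The upstream sequences of members at both ends of this range are shown because replication genes are textbook E2F targets, and a reader can see what the promoters of a falling and a non-falling member look like. Windows from RefSeq (GRCh38.p14, 250 bases before to 50 after an annotated start) matched 41 of the 48 tested members, some with several starts. MCM4, MCM5, GINS4, CCNE2, POLD3, RPA2 and RPA3 had no entry. The 250 bases before the start follow, 5′ to 3′, for the 3 members with the lowest and the 2 with the highest log2 fold change among those with a window. Capitals mark the words searched. POLA1 lies at chrX:24693668-24693917, plus strand, CDT1 at chr16:88803539-88803788, plus strand, and POLE2 at chr14:49688215-49688464, minus strand. The ORC4 starts lie at chr2:148021552-148021801, minus strand, and chr2:148020738-148020987, minus strand, and CCNE1 at chr19:29811741-29811990, plus strand.
POLA1: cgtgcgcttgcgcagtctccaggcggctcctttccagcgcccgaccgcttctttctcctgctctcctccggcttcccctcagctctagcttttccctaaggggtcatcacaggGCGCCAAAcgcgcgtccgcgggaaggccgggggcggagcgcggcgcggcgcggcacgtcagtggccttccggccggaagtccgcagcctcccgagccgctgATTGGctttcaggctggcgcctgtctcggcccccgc
CDT1: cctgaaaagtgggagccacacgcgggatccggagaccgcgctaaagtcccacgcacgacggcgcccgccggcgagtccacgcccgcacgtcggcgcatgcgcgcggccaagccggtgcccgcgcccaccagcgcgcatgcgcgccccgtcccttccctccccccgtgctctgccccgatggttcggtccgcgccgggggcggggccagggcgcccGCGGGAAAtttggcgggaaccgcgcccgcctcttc
POLE2: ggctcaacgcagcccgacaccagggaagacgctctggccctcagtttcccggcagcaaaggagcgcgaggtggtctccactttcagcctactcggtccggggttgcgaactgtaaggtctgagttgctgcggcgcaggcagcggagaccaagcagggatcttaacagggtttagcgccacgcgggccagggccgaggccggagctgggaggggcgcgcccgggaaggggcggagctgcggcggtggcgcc
ORC4 distal start: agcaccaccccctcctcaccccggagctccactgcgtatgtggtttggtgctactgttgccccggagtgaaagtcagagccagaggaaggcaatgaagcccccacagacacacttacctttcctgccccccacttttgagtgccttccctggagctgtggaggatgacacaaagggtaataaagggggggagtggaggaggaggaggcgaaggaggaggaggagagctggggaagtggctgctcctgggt
ORC4 proximal start: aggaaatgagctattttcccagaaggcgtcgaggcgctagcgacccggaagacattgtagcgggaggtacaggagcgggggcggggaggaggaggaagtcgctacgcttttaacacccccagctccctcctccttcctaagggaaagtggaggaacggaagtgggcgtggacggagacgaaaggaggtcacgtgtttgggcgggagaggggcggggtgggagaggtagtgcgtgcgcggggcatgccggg
CCNE1: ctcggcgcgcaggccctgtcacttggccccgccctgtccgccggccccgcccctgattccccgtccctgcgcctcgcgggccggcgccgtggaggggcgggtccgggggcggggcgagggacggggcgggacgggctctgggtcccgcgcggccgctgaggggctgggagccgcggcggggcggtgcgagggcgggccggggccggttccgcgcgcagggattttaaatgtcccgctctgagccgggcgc

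The words were the E2F words TTTGGCGC, TTTCCCGC, TTTCGCGC and TTTGCCGC, the CCAAT box CCAAT, and the cell cycle homology word TTTGAA, each on both strands. POLA1 carried an E2F word, GCGCCAAA as read on the strand shown, with its first base 137 bases before the start, and a CCAAT word (ATTGG) at 36 bases. In CDT1 the E2F word GCGGGAAA began 35 bases before the start. In POLE2 the word GCGCCAAA began 5 bases before the start and ran past the stretch printed. The ORC4 and CCNE1 windows held none of the words, which says only that these letters are not in these windows.

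E2F words were common in the members' windows. They occurred in 20 of 41 members (48.8%), against 5.55% of all tested genes with a window and 8.71% of all genes with a window that fell. These shares count a gene once if any of its windows held a word. Counted by single window, which is not a like measure, 3.31% of all windows in the table held an E2F word. Of members that fell, 17 of 31 had one, and of members not called, 3 of 10: CDC6, CDC25A and RFC3. The median log2 fold change was -0.71 for the 20 members with an E2F word and -0.75 for the 21 without. The CCAAT word was in 23 members (56.1%, against 42.4% of tested genes) and TTTGAA in 1, DBF4 (2.44%, against 15.8%). The words TTTCGCGC and GCGCGAAA can overlap each other; 3 pairs of E2F words overlapped in member windows, and 1 E2F word overlapped a CCAAT or TTTGAA word. A window held a median of 30 CpG dinucleotides for members and 21 for all tested genes. A match is a description of the sequence and not evidence of binding.

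In origin licensing some genes were called and others were not, and differences between the genes were not tested. Of the 8 genes of this group, 5 fell (ORC1, ORC2, ORC3, ORC6 and CDT1), and the group median was -0.42. ORC1, the largest ORC subunit and an ATPase whose protein is degraded after S phase begins, read 8.99 and 9.03 in vehicle and 8.14 and 8.18 in decitabine. The decitabine arrays were nearly identical and well below vehicle, 1.81-fold lower (on the log2 scale -0.85, SE 0.11, limma adjusted p = 0.00226). ORC6, a small subunit outside the ATPase core, was 1.78-fold lower (-0.83, SE 0.13).

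CDT1, which brings the MCM ring to ORC and CDC6, had the deepest fall of the group. It read 9.55 and 9.78 in vehicle and 8.36 and 8.74 in decitabine, so even the higher decitabine array was 0.81 below the lower vehicle array. The difference was 2.16-fold (log2 fold change -1.11, SE 0.16, adjusted p = 0.00349). CDC6, its partner in loading, had a log2 fold change of only -0.22 (SE 0.11, adjusted p = 0.197), from 10.89 and 10.95 to 10.67 and 10.72. The CDC6 groups did not overlap, but the step was small beside that of CDT1, and the difference between the genes was not tested.

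The remaining ORC subunits changed less. ORC2 and ORC3, core subunits, had log2 fold changes of -0.41 and -0.43 (adjusted p of 0.0447 and 0.0299). ORC5 (-0.14) and ORC4 (-0.03) did not pass. ORC4, an ATPase subunit, read 9.31 and 9.25 in vehicle and 9.42 and 9.08 in decitabine, with a decitabine array on either side of vehicle (adjusted p = 0.908). ORC2 and ORC3 lost their calls without vehicle replicate 1 (adjusted p of 0.225 and 0.206). The same held when vehicle replicate 2 (0.261 and 0.197) or decitabine replicate 2 (0.0935 and 0.0558) was left out, which left 3 falls in the group each time. ORC4 turned to 0.14 without decitabine replicate 2 and, like ORC5, above 0 with housekeeping centring.

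The helicase was the most uniform of the larger groups. Of its 13 genes 12 fell, where 15.6% of all genes did. All 13 had both decitabine arrays below both vehicle arrays, as did 39.5% of all genes. Log2 fold changes ran only from -0.96 to -0.38 (median -0.76, SD over genes 0.18). CDC45 and the GINS subunits, which activate the MCM ring, fell without exception: their log2 fold changes were -0.96 for GINS4, -0.82 for GINS2, -0.81 for CDC45, -0.76 for GINS1 and -0.67 for GINS3. GINS4 read 9.04 and 8.86 in vehicle and 8.23 and 7.74 in decitabine, the most scattered of the GINS genes (SE 0.18, adjusted p = 0.00878). GINS2 was the tightest, at 11.50 on both vehicle arrays and 10.68 and 10.67 in decitabine (SE 0.11, adjusted p = 0.00254).

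Among the ring subunits MCM2 to MCM7, 5 of 6 fell, with a median of -0.58. MCM6 had the largest step, from 10.36 and 10.20 to 9.63 and 9.11 (1.87-fold lower, SE 0.18, adjusted p = 0.0120). The log2 fold changes of the others that fell were -0.77 for MCM7, -0.63 for MCM5, -0.52 for MCM3 and -0.49 for MCM2. MCM4 read 10.97 and 10.81 in vehicle and 10.46 and 10.55 in decitabine. Its arrays did not overlap either, but its log2 fold change of -0.38 (SE 0.12) just missed the threshold (adjusted p = 0.0580).

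MCM10, a scaffold that helps the assembled helicase fire and tethers polymerase alpha, went from 10.14 and 10.03 to 9.23 and 9.17. That is 1.85-fold lower with little scatter in either group (log2 fold change -0.89, SE 0.12, adjusted p = 0.00223). MCM8, a relative of the ring subunits that acts in recombination repair, also fell (log2 fold change -0.58). Without vehicle replicate 1, 6 helicase genes were called; MCM2, MCM3, MCM5, MCM6, MCM8 and GINS3 were not (adjusted p from 0.0543 to 0.163). Without vehicle replicate 2, MCM2, MCM3, MCM5 and MCM8 were not called (0.0983 to 0.207), and without decitabine replicate 1 MCM2 was not (0.0662).

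Of the 5 regulators that fire origins, 2 fell, CDC7 and CCNE2. CDC7, the kinase that phosphorylates the MCM ring, read 7.79 and 7.74 in vehicle and 7.04 and 6.78 in decitabine. It was 1.81-fold lower (on the log2 scale -0.86, SE 0.13, adjusted p = 0.00422). Its activator DBF4 read 5.64 and 5.62 in vehicle against 5.35 and 4.79, and its log2 fold change of -0.56 had a wide error (SE 0.19, adjusted p = 0.0663). Without decitabine replicate 1 the test called DBF4 lower (adjusted p = 0.00405).

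Of the E-type cyclins, which activate CDK2 at S phase entry, only CCNE2 was called, and the difference between CCNE1 and CCNE2 was not tested. CCNE2 went from 10.11 and 10.12 to 9.49 and 9.15, 1.74-fold lower (on the log2 scale -0.80, SE 0.15, adjusted p = 0.00789). CCNE1 read 9.93 and 9.95 in vehicle and 10.27 and 10.05 in decitabine. It was thus the only member with a positive log2 fold change, 0.22, which did not pass (SE 0.13, adjusted p = 0.242, and from 0.0623 to 0.581 over the other settings). CDC25A, the phosphatase that activates CDK2, overlapped between groups: 8.90 and 8.96 against 8.68 and 8.92 (log2 fold change -0.13, adjusted p = 0.514). With housekeeping centring the CDC25A value turned to 0.03.

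The clamp loader was called lower in part, and differences between its subunits were not tested. RFC is a ring of a large subunit, RFC1, and 4 small ones that opens PCNA and places it on DNA. Of its 5 subunits 3 fell, with log2 fold changes of -0.88 for RFC5, -0.79 for RFC2 and -0.77 for RFC4 (SE 0.11 to 0.12). RFC5 read 10.56 and 10.55 in vehicle and 9.73 and 9.62 in decitabine, 1.84-fold lower (adjusted p = 0.00222).

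RFC3 read 11.05 and 10.97 in vehicle and 10.72 and 10.33 in decitabine, with a gap of 0.39 between the decitabine arrays (log2 fold change -0.48, SE 0.16, adjusted p = 0.0585). RFC1 was alike, at -0.53 (SE 0.17, adjusted p = 0.0536). Neither overlapped between groups, and without decitabine replicate 1 both were called (adjusted p of 0.00908 and 0.0119), making 5 of 5. A second, dimmer RFC1 probe set, not used, read 5.93 and 6.01 in vehicle and 6.46 and 5.87 in decitabine.

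The polymerases held the deepest falls. Of 9 polymerase and primase genes 8 fell, with a median of -0.84, the lowest of the 7 role groups. Polymerase alpha-primase, which lays down the RNA-DNA primers, fell in all 4 subunits, from -1.12 to -0.76. POLA1, its catalytic subunit, encoded on the X chromosome, went from 9.14 and 9.01 to 8.11 and 7.79. Every decitabine array was at least 0.89 below every vehicle array, a 2.18-fold difference (SE 0.15, adjusted p = 0.00221). PRIM1, the primase catalytic subunit, went from 10.09 and 10.12 to 9.19 and 9.20, 1.87-fold lower. Both pairs of arrays nearly coincided, and its p was the smallest of the group (log2 fold change -0.91, SE 0.11, adjusted p = 0.00173). The second subunits of polymerase and primase, POLA2 and PRIM2, had log2 fold changes of -0.84 and -0.76.

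Polymerase delta, the lagging strand enzyme, gave uneven values across its subunits, and the differences between them were not tested. POLD3, an accessory subunit also used in break-induced replication, had the largest fall of any member. It read 9.15 and 8.98 in vehicle and 8.09 and 7.23 in decitabine, a 2.65-fold difference whose decitabine arrays lay 0.85 apart (log2 fold change -1.40, SE 0.26, adjusted p = 0.00830). The fall was called from either decitabine array alone, at -0.98 without replicate 2 and -1.83 without replicate 1.

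POLD1, the catalytic subunit, read 8.68 and 8.71 in vehicle and 8.26 and 8.74 in decitabine. The second decitabine array was at the vehicle level, and the log2 fold change of -0.19 did not pass (SE 0.17, adjusted p = 0.450). It was called lower without decitabine replicate 2 (adjusted p = 0.0458) and turned to 0.04 without decitabine replicate 1. POLD2, an accessory subunit, fell less (log2 fold change -0.45). POLD4, the smallest subunit, is no member and was picked out after its value was seen: it rose from 8.55 and 8.74 to 9.34 and 9.88 (1.95-fold, log2 fold change 0.96, SE 0.19, adjusted p = 0.0105).

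Polymerase epsilon, the leading strand enzyme, fell in both members. POLE2, a non-catalytic subunit, went from 10.02 and 9.92 to 9.09 and 8.90, 1.97-fold lower (on the log2 scale -0.98, SE 0.13, adjusted p = 0.00196). The catalytic subunit POLE changed less, with -0.44 on the log2 scale (SE 0.13, adjusted p = 0.0458). Of the small histone-fold subunits, which are no members, POLE3 was at -0.12 (adjusted p = 0.542) and POLE4 at 0.43 (adjusted p = 0.0580). POLD2 and POLE lost their calls when vehicle replicate 1 (0.181 and 0.188), vehicle replicate 2 (0.229 and 0.254) or decitabine replicate 1 (0.0781 and 0.0950, all adjusted p) was left out. PRIM2 was not called without vehicle replicate 1 (0.108), which left 5 falls in the group.

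**Figure D3:**
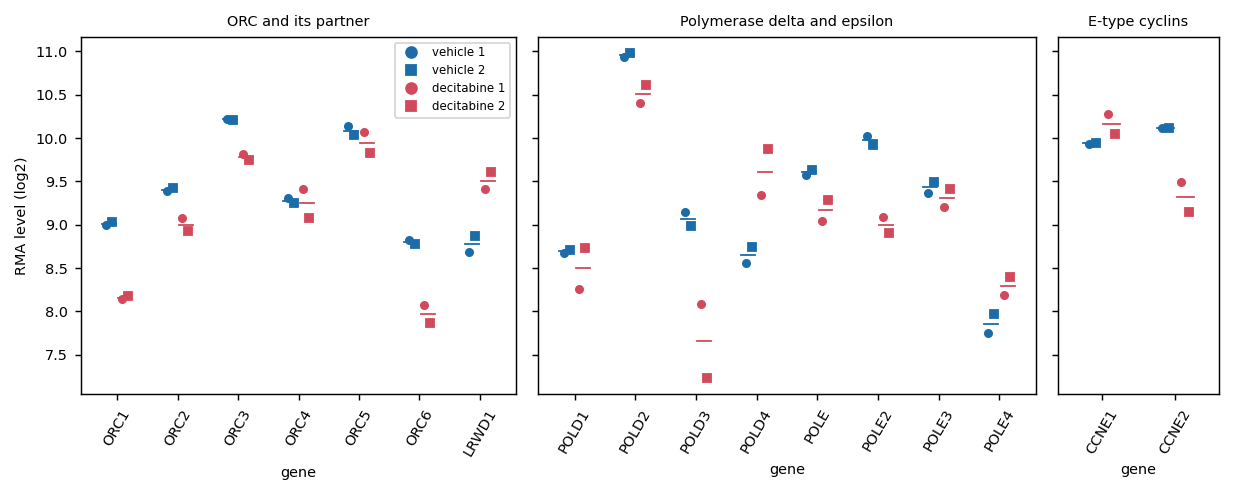
RMA level (log2) on each array for the ORC subunits with LRWD1, an ORC-binding protein, for the polymerase delta and epsilon subunits, and for the E-type cyclins; blue is vehicle, red decitabine, circles and squares replicates 1 and 2, short lines group means. Heights should be compared between colours within a gene and not between genes. ORC1 and ORC6 drop while ORC4 straddles its vehicle level, POLD3 drops while POLD4 is higher, and CCNE2 drops while CCNE1 does not.

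Lagging strand processing and single-strand binding genes fell in 5 of 6 cases (median -0.72). LIG1, the ligase that seals Okazaki fragments, went from 9.26 and 9.30 to 8.31 and 8.48, 1.84-fold lower (on the log2 scale -0.88, SE 0.12, adjusted p = 0.00264). FEN1, the flap nuclease, and RNASEH2A, the catalytic subunit of an enzyme that removes RNA from DNA, had log2 fold changes of -0.78 and -0.68. RPA coats single-stranded DNA. Its large subunit RPA1 and its small subunit RPA3 fell too (-0.75 and -0.55).

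RPA2, the middle subunit, read 7.83 and 8.04 in vehicle and 7.59 and 7.80 in decitabine. The groups were separated by only 0.03 and the log2 fold change of -0.24 did not pass (SE 0.14, adjusted p = 0.250). Each vehicle replicate mattered here: 2 genes stayed called without replicate 1 (FEN1, RPA1 and RPA3 lost, adjusted p of 0.0908, 0.0564 and 0.175) and 2 without replicate 2 (RNASEH2A, RPA1 and RPA3 lost, 0.0593, 0.0522 and 0.128). RPA3 was -0.36 without decitabine replicate 2 and not called (0.0753).

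Of the genes that supply thymidylate for synthesis, TYMS, the thymidylate synthase, went from 11.83 and 11.71 to 11.25 and 11.09, 1.51-fold lower (on the log2 scale -0.60, SE 0.12, adjusted p = 0.0130). Its decitabine arrays were both below vehicle by at least 0.46. TK1, the thymidine kinase of cycling cells, read 11.83 and 12.01 in vehicle and 11.37 and 11.76 in decitabine, and its log2 fold change of -0.36 did not pass (SE 0.16, adjusted p = 0.147). TYMS was not called without vehicle replicate 1 (adjusted p = 0.123) or vehicle replicate 2 (0.0622), and TK1 was called lower without decitabine replicate 2 (0.0296).

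A further 39 genes of replication that are no members (regulators, fork proteins, chromatin assembly and nucleotide enzymes) were listed, and 37 were tested. Of these 18 fell and 2 rose, where 15.6% of all genes fell and 12.4% rose. Their median was -0.39. By smallest p they were led by DNA2, a nuclease-helicase of Okazaki fragments (2.11-fold lower, SE 0.14 on the log2 scale), and MCM9, the partner of MCM8 (1.99-fold lower, SE 0.13). Next came CHAF1A, a subunit of the chromatin assembly factor behind the fork (1.91-fold lower), and DUT, which keeps uracil out of DNA (1.79-fold lower), with adjusted p between 0.00210 and 0.00371 for the 4 genes. Geminin (GMNN), the inhibitor of CDT1, read 9.68 and 9.53 in vehicle and 8.97 and 8.33 in decitabine, and so fell beside CDT1 (log2 fold change -0.96, adjusted p = 0.0157). The rises were of POLD4 and of LRWD1, a protein that stabilises ORC on chromatin, which went from 8.68 and 8.87 to 9.41 and 9.60 (log2 fold change 0.73, SE 0.13, adjusted p = 0.00781). GMNN and LRWD1 were picked out after their values were seen. Without vehicle replicate 1 the median of the 37 genes was -0.40, against -0.08 over all genes.

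Mitosis genes were set beside the replication genes because both belong to the proliferation program. Of 22 tested mitosis genes 12 fell and 0 rose, with a median of -0.50, against 36 of 48 and -0.72 for the replication members. Over all genes 15.6% fell and 12.4% rose. With a trended robust variance 0 mitosis genes rose as well (12.8% of all genes). At an unadjusted p under 0.05 there were 0 rises too, a level for which the share of all genes was not worked out. KIF11, the spindle motor, was 2.04-fold lower, KIF2C, a microtubule depolymerase, 1.86-fold, CCNB2, a mitotic cyclin, 1.72-fold and CENPF, a kinetochore protein, 1.58-fold (adjusted p from 0.00514 to 0.00987). Fewer mitosis genes were called lower when either vehicle array was dropped, and fewer of all genes as well. With vehicle array 1 dropped, the mitosis median was -0.48, against -0.08 over all genes. With vehicle array 2 dropped, it was -0.52, against -0.06. Housekeeping centring gave 6 mitosis falls, where 8.75% of all genes fell. The difference between the lists was not tested.

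**Figure D4:**
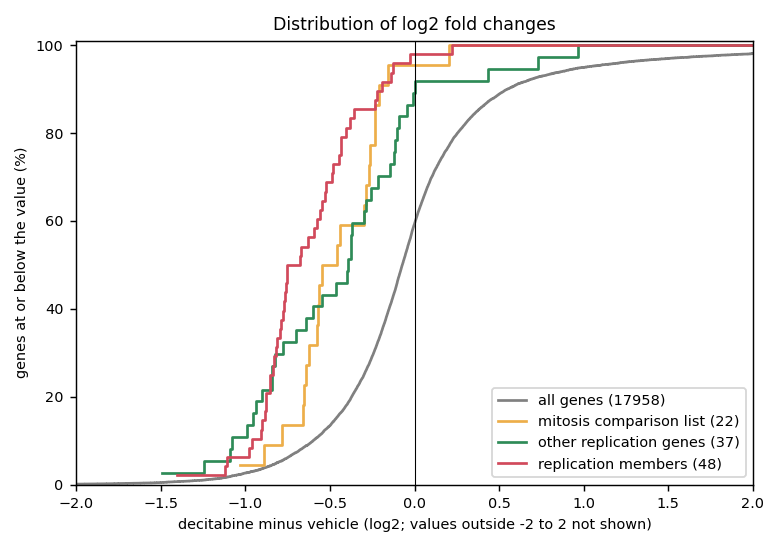
Cumulative share of genes (vertical axis, %) at or below a given decitabine minus vehicle difference (horizontal axis, log2) for all 17958 genes, the 22 mitosis genes, the 37 other replication genes and the 48 members. The member curve crosses the midpoint at -0.72, left of the mitosis (-0.50), other replication (-0.39) and all-gene (-0.07) curves, and nearly all of it lies left of 0.

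The size of the shift depended on how the arrays were scaled. Centring on 9 housekeeping genes moved the median of all genes by 0.16 on the log2 scale and left 28 members called lower (8.75% of all genes). Of these housekeeping genes GPI was itself called lower as deposited (log2 fold change -0.46, limma adjusted p = 0.0304). The others ran from -0.46 for VPS29 to 0.06 for VCP and were not called. Centring on the array median moved the median of all genes by -0.12 and gave 40 members called lower (24% of all genes). A centring shifts every gene alike, so the difference between the median member and the median gene (-0.64) is the same by construction. Housekeeping centring took away the calls of MCM2, MCM3, MCM5, ORC2, ORC3, POLD2, POLE and RPA3. Over all genes, rises made up 44.4% of calls as deposited, 65.5% with housekeeping centring and 29.2% with median centring. Repeated quantile normalization gave 33 falls (14.6% of all genes) and the mean of a gene's probe sets 36 (15.5%). Only RFC1 among the members has a second probe set, so this mean changed no other member's level. The RFC1 log2 fold change was -0.17 with it (limma adjusted p = 0.525), against -0.53 with the brightest probe set. At an adjusted p of 0.01 there were 22 falls (6.99%). No member rose under these settings, where between 7.23% and 16.6% of all genes did (9.9% with median centring, and 14.1% without the dimmer genes).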

How the data were processed

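The authors deposited log2 RMA levels, 1 value per probe set and array, made with Affymetrix Expression Console and RMA per the submitters' processing notes; for the versions, the probe set definition and the build, not given in the sources used here. RMA corrects background, quantile normalizes arrays and summarises probes, which hides any difference in RNA content between cells. Gene symbols for the 33297 probe sets came from the platform's annotation: 19181 had 1 symbol, 2055 several and 12061 were not listed. For 895 of the 17958 genes the brightest of several probe sets was used.

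The comparison used R 4.3.3 and limma 3.58.1 (lmFit, eBayes, no covariate, two-sided p, Benjamini-Hochberg over all genes, calls at 0.05), after the code was tested on simulated arrays. With 2 arrays a group, an exact permutation test of a gene cannot go below 0.333, so calls rest on pooled variance; the number of arrays limits the precision. No filter on dim genes was applied.

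Members and lists were chosen with earlier results of these data known. Arrays are given in full for the member with the smallest and the largest p of each role group and the 10 deepest non-overlapping falls; the other lists are named by the 4 smallest p. GINS2, CDC6, DBF4 and the E-type cyclins were added after their values were seen. Alternatives covered scaling, dim genes, probe sets, the variance model, the threshold, a replicate block and leaving out each array.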

Additional observations from a re-analysis of the deposited data

How the results depend on the processing

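Like the fits with 1 array left out, which are given above, the other settings gave no rise among the 48 members. As reported, 47 members and 10662 of all 17958 genes had a negative log2 fold change. In 43 members it stayed negative under every alternative in which the gene was tested. These were 12 alternatives, or 11 for DBF4, which was among the dimmer genes. They reuse the same 4 arrays and so are no independent evidence. With the trended robust variance, the replicate block, the stricter threshold or the dimmer genes left out, each log2 fold change stays as reported. Its sign could not change there. The mean of probe sets could change it only for RFC1, the only member with a second probe set. The share of all genes that stayed negative throughout was not worked out. At an adjusted p of 0.01, falls numbered 22 members in all, 3 in origin licensing, 7 in the helicase, 5 in the polymerases, 2 in the lagging strand group and 0 in thymidylate supply, with 11 falls and 1 rise among the other replication genes and 4 mitosis falls. Housekeeping centring gave 3 origin licensing falls, 6 mitosis falls and a member median of -0.55; median centring gave 5 clamp loader falls and a median of -0.83. The clamp loader also had 5 falls with a trended robust variance and without the dimmer genes. The causes of these moves were not tested, apart from the stricter threshold itself.

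With the replicate block (samples with the same number paired), 41 members fell, 5 of them clamp loader and 2 thymidylate genes; DBF4, MCM4, RFC1, RFC3 and TK1 were gained and no call was lost, and 3834 of all genes fell (2794 without it). The deviations of the arrays numbered 1 correlated at 0.27 over all genes and 0.69 over members, but with 2 pairs and no label that links them the numbers were not taken to pair the samples.

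With 1 array left out, where the lone array is assumed to vary like the other group, falls ran from 21 to 36 for the members, 3 to 5 for origin licensing, 6 to 12 for the helicase, 2 to 3 for the firing regulators, 3 to 5 for the clamp loader, 5 to 9 for the polymerases, 2 to 5 for the lagging strand group and 0 to 2 for thymidylate supply. They ran from 9 to 19 for the other replication genes (1 to 3 rises) and from 2 to 13 for mitosis, and the member median from -0.80 to -0.62. Of members not called as reported, these changed sign: ORC4 at 0.13 with housekeeping centring, 0.0389 after repeated quantile normalization, and from -0.195 to 0.138 with 1 array left out, ORC5 at 0.0218 and CDC25A at 0.0317 with housekeeping centring, and POLD1 from -0.429 to 0.0432 with 1 array left out. Of these fits, only POLD1 at -0.429 was called. The table gives no signal over background, so how far dim members such as DBF4 are compressed cannot be read from it.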
